A study of Mus musculus with 9 samples.

Results

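Weakly GFP-positive eggs (GFP Low) were compared with eggs that showed the red reporter (RFP), using 6 of the 9 libraries of the study, 3 per group. All 6 were poly-A RNA-seq libraries from pools of mouse metaphase II (MII) oocytes of the genotype Sycp3CreERT2/+; Rosa26nT-nG/+, chosen here by their group label alone. Every female was 4 weeks old, of mixed genetic background and superovulated with 5 IU of PMSG and, 48 h later, 5 IU of hCG. Eggs were taken from the oviduct 13 h after hCG, their cumulus cells were removed with hyaluronidase, and they were picked by hand under a fluorescence microscope. CreERT2 is a Cre recombinase that enters the nucleus in the presence of tamoxifen, and here it is expressed from 1 allele of the meiotic gene Sycp3. The nT-nG allele gives red nuclei (tdTomato) before recombination by Cre and green nuclei (GFP) after it, so that GFP records a past recombination in the oocyte. The GFP Low pools held 49, 52 and 57 oocytes and the RFP pools 87, 88 and 100, so group and pool size cannot be told apart. The labels do not say whether replicates came from separate animals, and p-values measure only the spread between these libraries. In pooled RNA, fewer eggs with a transcript and less of it per egg cannot be told apart.

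A full-grown oocyte stops transcribing before ovulation. Until the embryonic genome is switched on, the egg therefore lives on stored maternal mRNAs, whose amounts are set by earlier synthesis, by translation-linked changes of the poly-A tail and by decay. Poly-A capture also follows tail length, so a lower read count can mean fewer molecules or shorter tails, and these cannot be told apart here.

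Of 15199 genes tested, 3 differed between GFP Low and RFP eggs at an adjusted p of 0.05, which is 0.0197% of the genes. The green reporter eGFP was higher in GFP Low, and Gm2042, an oogenesin-type gene, and Rps28, a small ribosomal subunit gene, were lower. Below these calls lay 5 mRNAs with many reads (Ubqln1, Klhdc2, Pank2, Strbp and Zmynd19) at 66.8% to 76.4% of their RFP level. These 5 were chosen with results of these data known, and none of them passed the adjusted threshold. The groups did not overlap in any of the 5, nor in 7.68% of all genes tested. The bulk of abundant mRNAs differed by far less, and for most of them the data leave room for no more than a 1.5-fold difference.

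Library totals ranged from 19381612 to 27746230 counts. Oocyte genes were present in every library, with Gdf9 at 1442 to 1576 CPM (edgeR counts scaled to library size with TMM factors) and the 8 genes of the subcortical maternal complex list summing to 15338 to 17693 CPM. Summed over 24 cumulus and granulosa markers, GFP Low libraries held 145 to 175 CPM and RFP libraries 136 to 227 CPM, most of it from Nr5a2, which had 104 to 130 CPM in each library. Several other markers of that list were high in GFP Low 1 and RFP 2. Inha, a granulosa inhibin subunit, had 5.59 CPM in GFP Low 1 and 6.34 in RFP 2, was at 0 in GFP Low 2, GFP Low 3 and RFP 3, and had 0.453 in RFP 1. Tnfaip6, a gene of the expanding cumulus matrix, had 6.67 CPM in GFP Low 1 and 11.0 in RFP 2, and at most 1.06 in the other libraries. Ereg was at 0 in 5 of the 6 libraries. RFP 1 stood apart in other markers. Cyp11a1, a steroid-synthesis enzyme, had 3.21 CPM there and at most 0.660 in the other libraries, and it was 1 of 17 tested markers (5.88%, beside 2.62% of all genes tested) with an unadjusted p under 0.05. Of 14 blood and immune markers, 7 were in the table, and they summed to 3.17 to 5.25 CPM. The 14 oviduct and stromal markers, 13 of which were in the table, summed to 42.3 to 61.4 CPM, with Pecam1 at 37.3 to 45.7. The collagen genes Col1a1 and Col3a1 and the keratin gene Krt18 had 2.76, 2.83 and 1.85 CPM in RFP 1, and at most 0.414 CPM in any other library. The part of other cell types in the results was not tested, and values without both GFP Low 1 and RFP 2, or without RFP 1, are given where they bear on a result.

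The groups were as close to each other as their own replicates. The root mean square difference of log2 CPM was 0.209 to 0.229 between GFP Low libraries, 0.219 to 0.268 between RFP libraries and 0.192 to 0.246 between the groups. The smallest of the 15 distances was that between GFP Low 1 and RFP 2, which belong to different groups. The common biological coefficient of variation estimated by edgeR was 0.247.

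The reporters matched the labels. eGFP was at 14.6, 16.9 and 23.9 CPM in GFP Low 1, 2 and 3 and at 0, 0.352 and 0.594 CPM in RFP 1, 2 and 3. tdTomato had 0.828, 0.766 and 1.26 CPM in GFP Low and 3.55, 2.51 and 1.71 CPM in RFP. Each reporter separated the groups completely, although reads of both were found in every GFP Low library. Scaled by length, eGFP made up 97.5% ± 0.272 of the sum of both reporters in GFP Low against 21.0% ± 20.6 for RFP (SD, n = 3, exact permutation test, two-sided, p = 0.100, the smallest that 3 against 3 allows). Within RFP the share was 0, 22.0 and 41.1% in replicates 1, 2 and 3, on 94, 57 and 46 reads of tdTomato and 0, 8 and 16 of eGFP. The eGFP share in the RFP libraries thus covered a wide range. eGFP passed the test (log2 fold change 5.85, SE 0.53, edgeR quasi-likelihood adjusted p = 0.000716), whereas tdTomato did not (-1.43, SE 0.46, edgeR adjusted p = 1.00). The size of the eGFP difference rests on few RFP reads: it was 5.25 without RFP 1 and 6.77 without RFP 3, and limma-voom gave 6.86 with an adjusted p of 0.280. Sycp3, whose locus carries the Cre, had 12.3, 12.4 and 18.3 CPM in GFP Low and 20.6, 12.2 and 12.0 CPM in RFP, and these values overlapped.

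Gm2042 was the most firmly separated mRNA. It belongs to the oogenesins, PRAME-like leucine-rich repeat proteins made in oocytes, and lies at chr12:87954080-87960683 on the plus strand of GRCm38. It had 100, 103 and 96.8 CPM in GFP Low 1, 2 and 3 and 223, 267 and 228 CPM in RFP 1, 2 and 3. The highest GFP Low value was under the lowest RFP value by a wide margin, and the spread within GFP Low was 2.97 CPM (SD, n = 3) around a mean of 100. The level in GFP Low was 41.7% of that in RFP (95% interval 36.4 to 47.9, log2 fold change -1.26, SE 0.09, edgeR adjusted p = 9.29e-05). In GFP High libraries, which were scaled over all 9 libraries and entered no test here, Gm2042 had 97.9, 109 and 89.9 CPM, close to the GFP Low values.

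Gm2042 has close copies, and its value depends on how reads were assigned among them. Of its 50-base windows, 90.3% also occur in other genes, and 85.7% occur in Oog1, another oogenesin on chromosome 12. The annotated coding sequences of Gm2042 and Oog1 are both 1491 bases long and differ at 1 base, A1297C, counted from the first base of the coding sequence with the Gm2042 base first. The 61 bases around it show how little coding sequence there is to tell these mRNAs apart, with the differing base in capitals, from GENCODE M21 transcripts at chr12:87960181-87960241 for Gm2042 and chr12:87608350-87608410 for Oog1, both on the plus strand.

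Gm2042: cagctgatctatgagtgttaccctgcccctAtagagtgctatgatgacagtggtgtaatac

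Oog1: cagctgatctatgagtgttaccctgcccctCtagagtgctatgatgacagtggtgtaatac

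The 4 closest copies had small log2 fold changes, -0.10 in Oog1, -0.05 in C87977 and -0.04 in Gm10436 and Gm13023. How reads were assigned among the copies was not tested. Oog1 had 148, 136 and 117 CPM in GFP Low and 132, 151 and 146 CPM in RFP, which overlap (log2 fold change -0.10, SE 0.10). Gm10436, which shares 58.7% of the windows, had 499, 471 and 453 CPM in GFP Low and 454, 514 and 498 CPM in RFP. Summed as CPM of the library total, the 4 genes that share at least 10% of the windows (Oog1, Gm10436, C87977 and Gm13023) had 1860 ± 15.4 in GFP Low against 1932 ± 160 for RFP (SD, n = 3), with overlapping groups. The RFP spread of this sum is wide beside the Gm2042 means of 100 CPM in GFP Low and 240 CPM in RFP. The sum therefore cannot show whether reads moved between Gm2042 and its copies. Adding Gm2042 itself gave 1959 ± 13 against 2172 ± 183, and these groups did not overlap. Of the 8 oogenesins tested, 1 was called, beside 0.0197% of all genes tested, and the other 7 had log2 fold changes from -0.42 in Pramef17 to 0.00 in Oog4. The list holds Gm2042 itself and was chosen with earlier results of these data known, so nothing is read from its share. The median of the 8 was -0.09, against a median of 0.00 over all genes tested.

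Rps28 encodes a protein of the small ribosomal subunit. It had 2.53, 2.49 and 2.35 CPM in GFP Low 1, 2 and 3 and 7.63, 18.9 and 12.6 CPM in RFP 1, 2 and 3 (log2 fold change -2.41, SE 0.31, edgeR adjusted p = 0.0214). The call did not hold without GFP Low 1, 2 or 3, RFP 2 or RFP 3 (edgeR adjusted p = 0.0518 to 0.189), nor with limma-voom (0.304), bias-adjusted deviances (0.0657) or the fit of all 9 libraries (1.00). The GFP Low libraries were nearly equal to each other, while the RFP libraries ranged widely above them. In GFP High 1, 2 and 3, scaled over all 9 libraries and not tested here, Rps28 had 20.7, 2.44 and 1.62 CPM. GFP High 1 thus lay above every RFP library, and GFP High 2 and 3 lay near the GFP Low values. The counts of Rps28 have to be read beside those of its pseudogenes, because the coding sequence of Rps28 is also found elsewhere in the genome. The gene lies at chr17:33819027-33824562 on the minus strand. Its coding sequence of 210 bases, from GENCODE M21 and printed below, is identical over all 210 bases to the processed pseudogene Gm10443 at chr6:86334031-86334240. It differs from the pseudogenes Gm10263 on chromosome 13 and Gm13192 on chromosome 2 by G163A, counted from the first coding base with the Rps28 base first, and Gm13192 stops 2 bases short of its end. The base at 163 is in capitals.

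Rps28: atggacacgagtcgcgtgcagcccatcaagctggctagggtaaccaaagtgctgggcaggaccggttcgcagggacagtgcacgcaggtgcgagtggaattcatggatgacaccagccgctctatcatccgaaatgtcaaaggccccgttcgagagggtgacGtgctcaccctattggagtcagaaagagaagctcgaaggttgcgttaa

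The pseudogenes Gm10443 and Gm10263 had values in the opposite direction. Gm10443 had 22.2, 19.8 and 20.5 CPM in GFP Low and 8.61, 8.32 and 1.49 CPM in RFP, groups that did not overlap (log2 fold change 1.77, SE 0.43, edgeR adjusted p = 1.00). Gm10263 had 3.78, 2.76 and 2.28 CPM in GFP Low and 1.28, 1.67 and 0.372 CPM in RFP (log2 fold change 1.40, SE 0.52, edgeR adjusted p = 1.00). Neither passed the test, but Gm10443 was among the 34 calls of the fit without a filter on low counts. RFP 3 had the lowest value of both pseudogenes, and RFP 2 had the highest value of Rps28. Over Rps28 and 4 genes that share at least 10% of its 50-base windows (these 3 and Gm3511), the sums were 624, 785 and 761 counts in GFP Low and 577, 732 and 453 in RFP. As CPM of the library total this was 29.8 ± 2.38 against 23.7 ± 7.91 (SD, n = 3), and the groups overlapped. Thus Rps28 had its lower values in GFP Low, Gm10443 and Gm10263 had their lower values in RFP, and the sum of all 5 did not separate the groups. This sum was formed after the values had been seen.

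**Figure D1:**
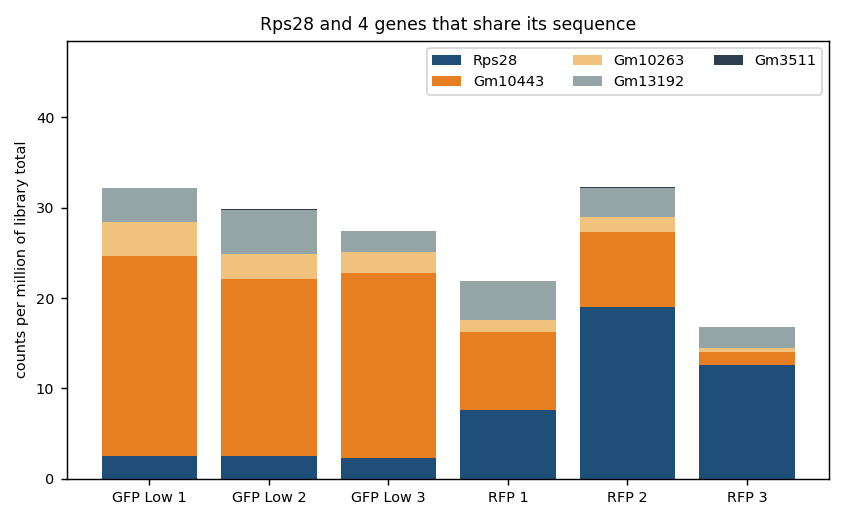
Stacked bars give the counts of Rps28, scaled to CPM by the library total, and those of the pseudogenes Gm10443, Gm10263 and Gm13192, and Gm3511, in each of the 6 libraries. The share of Rps28 is small in the 3 GFP Low libraries and larger in the 3 RFP libraries, while the summed heights, 29.8 ± 2.38 in GFP Low and 23.7 ± 7.91 in RFP, overlap.

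The 2 pseudogenes among the 10 smallest p-values also copy ribosomal protein genes, and were examined the same way after their values had been seen. Gm5854 shares 84.7% of its windows with other genes, Rpl7a among them. It had 6.98, 9.35 and 10.2 CPM in GFP Low and 2.95, 4.27 and 3.16 CPM in RFP (log2 fold change 1.36, SE 0.26, edgeR adjusted p = 0.461). Rpl7a, a large-subunit gene, had 7.19, 6.01 and 1.73 CPM in GFP Low and 8.01, 10.6 and 13.6 CPM in RFP (log2 fold change -1.12, SE 0.40, edgeR adjusted p = 1.00). The parent and the copy differed in opposite directions, and neither was called. The sum over the 22 genes of this sequence family was 46.2 ± 4.01 CPM in GFP Low against 42.9 ± 4.32 for RFP (SD, n = 3), and the groups overlapped. Rpl17-ps3 had 62.5, 67.2 and 65.9 CPM in GFP Low and 47.7, 48.4 and 44.4 CPM in RFP (log2 fold change 0.48, SE 0.10, edgeR adjusted p = 0.919). The sum over its family of 15 genes was 217 ± 21.4 against 209 ± 45.1 CPM, which also overlapped. Among all 77 cytosolic ribosomal protein genes tested, Rps28 was the only call, and 3 others were higher and 3 lower at an unadjusted p of 0.05. These 7 are 9.09% of the list, beside 2.62% of all genes tested, and the median log2 fold change was 0.04. This list was also chosen with earlier results known and holds Rps28, so nothing is read from its share.

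Small shifts were best resolved in abundant mRNAs, taken here as the 5823 protein-coding genes with a mean of at least 20 CPM. Their coefficient of variation between replicates had a median of 7.31% in GFP Low and 8.59% in RFP, and the median standard error of a log2 fold change was 0.114. Of these mRNAs, 99 had an unadjusted p under 0.05, which is 1.70% beside 2.62% of all genes tested. There were 45 higher and 54 lower in GFP Low, where 1.28% of all genes tested were higher and 1.34% lower by the same rule. The groups did not overlap in 365 of the abundant mRNAs (6.27%), beside 7.68% of all genes tested (3.62% higher and 4.07% lower). The share by p-value was under that of the whole table in this fit and over it when RFP 2 (3.47% beside 3.19%) or RFP 3 (4.31% beside 3.64%) was left out and in the fit of all 9 libraries (0.635% beside 0.536%). The balance of directions moved too: 21 were higher and 50 lower without GFP Low 3, 26 and 70 without RFP 1, 132 and 70 without RFP 2, 140 and 111 without RFP 3, and 36 and 67 with library totals in place of TMM. No direction is therefore read from the split. The median size of the log2 fold change was 0.0634, and 95% of the abundant mRNAs differed by less than 0.22. For 5631 of them (96.7%) the 95% interval lay wholly within 1.5-fold in either direction, beside 47.4% of all genes tested, and for 3103 (53.3%) it lay within 1.25-fold. Only 5 had a fitted difference over 1.5-fold: Gm2042, Uqcrb, Hist1h2bq, Gm6367 and Hmgn1, of which Gm2042 alone separated the groups. Among the 2231 mRNAs at 100 CPM or more, 99.4% had an interval within 1.5-fold and 85.7% within 1.25-fold.

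**Figure D2:**
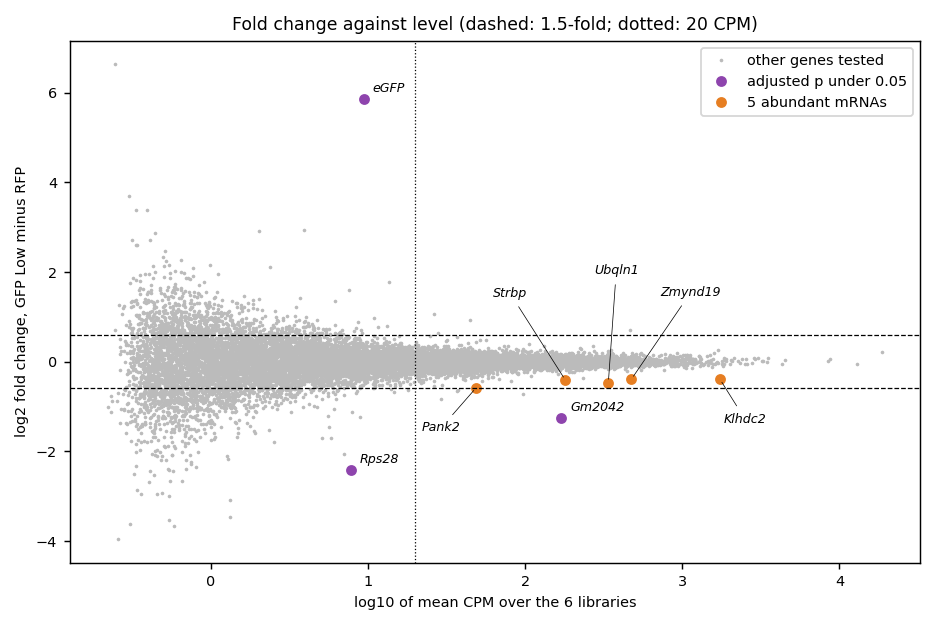
Each point is 1 of the 15199 genes tested, with the log10 of its mean CPM over 6 libraries on the horizontal axis and its log2 fold change (GFP Low minus RFP) on the vertical axis. The spread narrows toward abundant genes, where Ubqln1, Klhdc2, Pank2, Strbp and Zmynd19 (orange) lie between -0.58 and -0.39, and the genes past the adjusted threshold (purple) stand apart.

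The mRNAs that took the most reads were nearly level between the groups. Zbed3, a member of the subcortical maternal complex, had 8669, 9368 and 8725 CPM in GFP Low and 8221, 7926 and 9704 CPM in RFP (log2 fold change 0.05, 95% interval -0.12 to 0.22). Hsp90aa1, a cytosolic chaperone, had a log2 fold change of 0.02 (-0.13 to 0.17), Rdx, which links actin to the membrane, 0.03 (-0.13 to 0.18), and Mdm4, a p53 inhibitor, -0.01 (-0.14 to 0.12). Dnmt1, the maintenance DNA methyltransferase, had 3601, 3600 and 3656 CPM in GFP Low and 3129, 3546 and 3538 CPM in RFP. These did not overlap, but the difference was small (log2 fold change 0.09, 95% interval -0.06 to 0.23). For these mRNAs differences beyond about 1.25-fold lay outside the intervals.

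The 5 abundant mRNAs named above were chosen with results of these data known, so their separation is a description and supports nothing by itself. Ubqln1 encodes a ubiquilin, a shuttle that carries ubiquitylated proteins to the proteasome. It lies at chr13:58176156-58215653 on the minus strand. It had 301, 295 and 255 CPM in GFP Low 1, 2 and 3 and 394, 398 and 385 CPM in RFP 1, 2 and 3. The RFP libraries had an SD of 6.56 CPM (n = 3) around their mean of 393, and the GFP Low libraries all lay lower, GFP Low 3 most so. The GFP Low level was 72.3% of RFP (95% interval 63.9 to 81.7, log2 fold change -0.47, SE 0.08, edgeR adjusted p = 0.308). No 50-base window of Ubqln1 occurs in another gene, and no other gene overlaps its exons. Its GFP High values were 267, 320 and 347 CPM, of which the lowest falls among the GFP Low libraries and the others between the groups.

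Klhdc2 encodes a substrate receptor of a cullin-2 ubiquitin ligase that recognises the C-terminal ends of proteins. It lies at chr12:69296681-69310687 on the plus strand. It had 1429, 1547 and 1532 CPM in GFP Low and 2040, 2035 and 1829 CPM in RFP, with RFP 3 nearest to GFP Low. The GFP Low level was 76.4% of RFP (95% interval 68.6 to 84.9, log2 fold change -0.39, SE 0.07, edgeR adjusted p = 0.366). It also shares no window with another gene. Its last exon overlaps Nemf on the opposite strand, and Nemf had a log2 fold change of -0.06 (SE 0.09). GFP High libraries had 1697, 1805 and 1745 CPM, all between the 2 groups.

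Pank2 encodes a pantothenate kinase, which starts coenzyme A synthesis. It lies at chr2:131262495-131299188 on the plus strand. It had 40.4, 37.8 and 38.8 CPM in GFP Low and 52.0, 61.0 and 62.0 CPM in RFP. The GFP Low values were tightly grouped (SD 1.30, n = 3), and RFP 1 was the RFP library nearest to them. The GFP Low level was 66.8% of RFP (95% interval 56.2 to 79.4, log2 fold change -0.58, SE 0.11, edgeR adjusted p = 0.539), the largest difference of the 5. Pank2 overlaps Gm14233 on its own strand, sharing 7.35% of its windows, and Rnf24 on the other, whose log2 fold change was -0.06 (SE 0.10). GFP High libraries were split, with 34.6 CPM in GFP High 1, and 61.4 and 58.0 CPM in GFP High 2 and 3.

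Strbp encodes a double-stranded RNA binding protein first described in spermatids. It lies at chr2:37483228-37703859 on the minus strand. It had 158, 165 and 143 CPM in GFP Low and 197, 204 and 217 CPM in RFP, with a clear gap between the groups. The GFP Low level was 75.5% of RFP (95% interval 66.4 to 85.8, log2 fold change -0.41, SE 0.09, edgeR adjusted p = 0.795). Its opposite-strand neighbour Rabgap1, which overlaps its exons, had a log2 fold change of -0.16 (SE 0.13). GFP High libraries had 168, 160 and 154 CPM, near the GFP Low values.

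Zmynd19 encodes a MYND-type zinc finger protein that associates with the CTLH ubiquitin ligase. It lies at chr2:24949792-24962075 on the plus strand. It had 385, 436 and 409 CPM in GFP Low and 476, 557 and 581 CPM in RFP. The gap between GFP Low 2 and RFP 1 was small beside the spread within RFP (SD 55.0, n = 3). The GFP Low level was 76.2% of RFP (95% interval 66.7 to 87.1, log2 fold change -0.39, SE 0.09, edgeR adjusted p = 1.00). GFP High libraries had 423, 509 and 503 CPM, which overlap both groups.

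**Figure D3:**
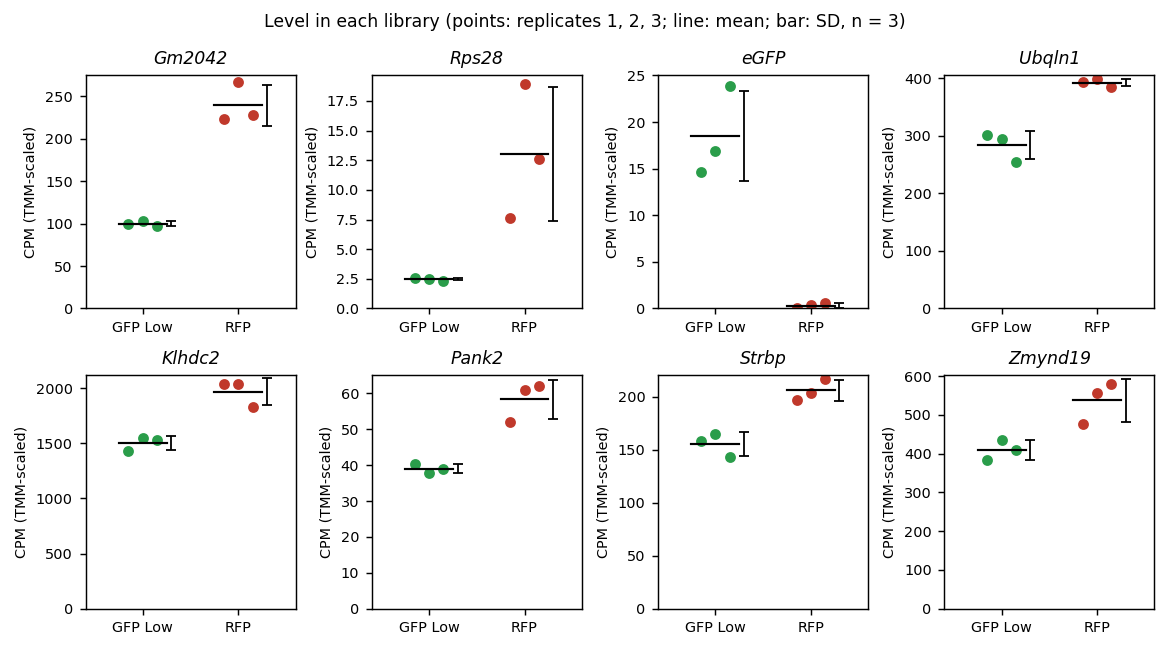
Points give the TMM-scaled CPM of each gene in GFP Low (green) and RFP (red) replicates 1, 2 and 3, on linear axes that start at 0; lines are means and bars are SD (n = 3). In each of the 8 panels the 3 GFP Low and 3 RFP points do not overlap, and the gap is wide for Gm2042 and narrow for Zmynd19. The genes shown are the calls and the mRNAs chosen with results known, so their separation follows from the choice. The groups did not overlap in 7.68% of all genes tested.

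Whether these 5 passed a threshold depended on the test. In the authors' deposited table all 5 had an adjusted p under 0.05: 0.000388 for Ubqln1, 0.00287 for Klhdc2, 0.00541 for Pank2, 0.0210 for Strbp and 0.0484 for Zmynd19. That deposited table had 10 such genes, 0.0344% of its 29099 genes, of which 3 were higher and 7 lower in GFP Low. Those 29099 are all genes listed there, without the filter used for edgeR, so this share does not compare with that of the edgeR calls. The others of the 10 were Gm2042, Rps28, eGFP, Gm5854 and Rpl17-ps3. The 5 mRNAs, Gm2042 and Rps28 thus make up all 7 lower genes of that table. The 5 were chosen with results of these data known, so their passing there is no separate support. The fitted log2 fold changes of the 5 were nearly the same in the authors' deposited table, -0.47, -0.39, -0.58, -0.40 and -0.39. What made the adjusted p-values differ was not tested. Without both GFP Low 1 and RFP 2 the values were -0.50 for Ubqln1, -0.33 for Klhdc2, -0.57 for Pank2, -0.42 for Strbp and -0.32 for Zmynd19, all of the same sign as in the fit of 6 libraries. Without RFP 1 they were -0.47, -0.36, -0.66, -0.44 and -0.47, in the same order.

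The other members of the families and complexes of these genes were not called. Of 16 ubiquilins and proteasome shuttles tested, Ubqln1 had the only unadjusted p under 0.05 (6.25% of the list, beside 2.62% of all genes tested), and the median log2 fold change was 0.01. Each of these lists holds 1 of the 5 chosen mRNAs, so nothing is read from its share. Its paralog Ubqln2 had 127, 142 and 126 CPM in GFP Low and 130, 133 and 141 CPM in RFP (log2 fold change -0.03, SE 0.09), and Ubqln4 had 0.04 (SE 0.22). The proteasome receptors Psmd4 and Adrm1 had 0.11 (SE 0.08) and 0.22 (SE 0.12), and the shuttle Rad23b -0.01 (SE 0.09). None of these was called. Of 16 genes of cullin-2 ligases, Klhdc2 and, at a mean of 0.728 CPM, Zer1 had an unadjusted p under 0.05 (12.5%, beside the same 2.62%), in opposite directions. The scaffold Cul2 had 0.08 (SE 0.15) and the adaptor Eloc 0.08 (SE 0.10). The related receptors Klhdc3 and Klhdc10 had 0.10 (SE 0.10) and -0.22 (SE 0.14), and Klhdc1 -0.03 (SE 0.16).

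Of 12 genes of the CTLH ligase, Zmynd19 had the only unadjusted p under 0.05 (8.33%, beside 2.62% of all genes tested), and the median log2 fold change was -0.03. Its catalytic subunit Maea had 218, 220 and 216 CPM in GFP Low and 205, 196 and 221 CPM in RFP (log2 fold change 0.07, SE 0.08). Wdr26 and Ypel5 had -0.07 (SE 0.08) and -0.04 (SE 0.09), and the scaffold Ranbp9 -0.05 (SE 0.08). In coenzyme A synthesis, 12 of 14 listed genes were tested, Pank2 alone had an unadjusted p under 0.05 (8.33%), and the median was -0.01. Pank3, a second pantothenate kinase, had 31.1, 34.2 and 29.3 CPM in GFP Low and 31.4, 30.4 and 29.5 CPM in RFP, which overlap, and Coasy, which completes the pathway, had 0.14 (SE 0.20). Of 16 double-stranded RNA binding genes, Strbp and, at a mean of 0.71 CPM, Prkra had an unadjusted p under 0.05 (12.5%), both lower, beside 1.34% of all genes tested that were lower. The Strbp relative Zfr had 0.00 (SE 0.07). Stau1, an mRNA transport protein, had 1074, 1136 and 1069 CPM in GFP Low and 991, 1003 and 1053 CPM in RFP, groups that did not overlap (log2 fold change 0.11, 95% interval -0.04 to 0.25).

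Beyond these 5 and Gm2042, the abundant mRNAs with the smallest p-values on the lower side included Dhx36, Ric1 and Zfp706. Dhx36, a helicase that unwinds G-quadruplexes, had 47.2, 47.2 and 42.2 CPM in GFP Low and 63.3, 64.7 and 54.3 CPM in RFP (log2 fold change -0.42, SE 0.12). Ric1, part of a Golgi exchange factor, had 219, 206 and 187 CPM against 222, 267 and 295 CPM (-0.36, SE 0.11), and the edges of the groups nearly touched. Zfp706, a small zinc finger protein, had 155, 137 and 148 CPM against 174, 182 and 175 CPM (-0.27, SE 0.08). The edgeR adjusted p was 1.00 for each of these 3.

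On the higher side the 10 abundant mRNAs had log2 fold changes of 0.20 to 0.38, each with an edgeR adjusted p of 1.00. Rhno1, which acts in the response to stalled replication forks, had 76.2, 92.6 and 90.4 CPM in GFP Low and 61.8, 71.4 and 70.3 CPM in RFP (0.35, SE 0.11). Dnajb1, a heat-inducible co-chaperone of Hsp70, had 150, 164 and 172 CPM against 133, 148 and 129 CPM (0.25, SE 0.09). Hirip3, a histone-binding partner of Hira, had 518, 491 and 516 CPM against 412, 470 and 447 CPM (0.20, SE 0.08). The groups were separate in each, narrowly so in Dnajb1. Sap18, of a histone deacetylase and splicing-related complex, had 0.25 (SE 0.09), and it shares 15.6% of its windows with other genes. The splicing proteins Sf3a2 and Dhx16 had 0.24 (SE 0.09) and 0.26 (SE 0.10). Myh2, a skeletal muscle myosin heavy chain, had 43.3, 40.8 and 48.2 CPM against 37.3, 33.0 and 31.4 CPM (0.38, SE 0.12), with 26.9% of its windows in other myosin genes. The zinc finger gene Zscan29 had 0.38 (SE 0.14), Nat9 0.30 (SE 0.11) and 4930432K21Rik 0.25 (SE 0.09). All 10 were differences smaller in size than that of Ubqln1, but they were taken only from mRNAs whose groups did not overlap. Rpl27a, a large-subunit ribosomal protein gene whose groups overlapped, had 0.58 (SE 0.24).

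**Figure D4:**
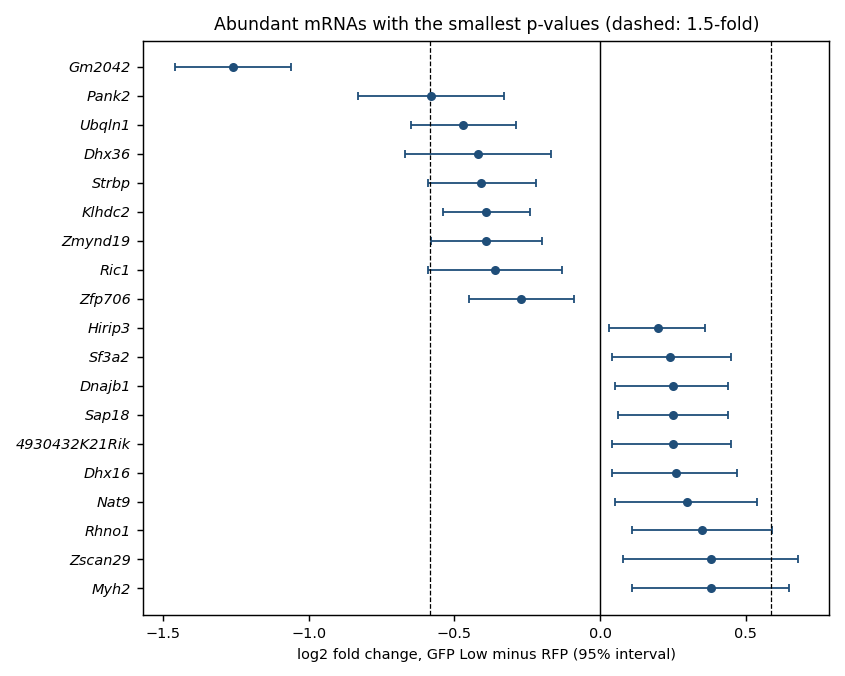
Points are log2 fold changes (GFP Low minus RFP) and bars their 95% intervals for 9 lower and 10 higher abundant mRNAs with the smallest p-values and no overlap between groups; dashed lines mark 1.5-fold. Gm2042 alone has an interval wholly beyond 1.5-fold (-1.46 to -1.06).

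By position, 3 of the 5 mRNAs (Pank2, Strbp and Zmynd19) are on chromosome 2, and Klhdc2 shares chromosome 12 with Gm2042. Of 437 abundant mRNAs on chromosome 2, 12 had an unadjusted p under 0.05 (2.75%), 9 of them lower. On chromosome 12 it was 5 of 236 (2.12%). The median log2 fold change was 0.00 on chromosome 2 and -0.02 on chromosome 12. Across the autosomes and X the share ran from 0.275% on chromosome 1 to 3.61% on chromosome 19, beside 1.70% over all abundant mRNAs. Chromosome 2 had the highest share after chromosome 19, closely followed by chromosome 10 (2.7%) and chromosome 3 (2.62%). The 12 on chromosome 2 include Pank2, Strbp and Zmynd19, and the 5 on chromosome 12 include Klhdc2 and Gm2042. These were singled out by results of these same data, so nothing is read from the shares.

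The 3' ends were searched for the cytoplasmic polyadenylation element (CPE), which steers tail length in oocytes. It was taken as TTTTAT or TTTTAAT in the last 100 bases of the longest annotated protein-coding transcript, on the sense strand. These motifs were in 21.8% of the 5600 abundant mRNAs with at least 100 bases of 3' UTR. Those with a CPE had a median log2 fold change of -0.02 and those without one 0.00. An unadjusted p under 0.05 was found in 1.47% of the former and 1.71% of the latter. Other ends of the same genes were not searched. The end searched for Strbp lay inside the gene, near chr2:37569874, and the Klhdc2 window held no polyadenylation hexamer (AATAAA or ATTAAA). Among the 5 mRNAs, Pank2 alone had a CPE in this window. It stands just after a polyadenylation hexamer AATAAA in the 30 bases at chr2:131299159-131299188 (plus strand, GRCm38, GENCODE M21), with both motifs in capitals.

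Pank2: tttaaaAATAAAaatttatTTTTATgtgta

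Genes that define the egg and its arrest were not called by edgeR, and none of them is among the 10 genes of the authors' deposited table. The 7 zona and sperm-binding genes had a median log2 fold change of 0.10, with Zp3 at 0.11 (SE 0.08) and Astl, the egg protease that cleaves the zona, at 0.12 (SE 0.08). The 7 oocyte-secreted factors had a median of -0.03, with Gdf9 at -0.02 (SE 0.07) and Bmp15 at -0.09. The 8 genes of the subcortical maternal complex had 0.01, ranging from -0.07 in Nlrp5 to 0.15 in Ooep. The 20 genes of metaphase II arrest had a median of -0.01. The anaphase inhibitor Fbxo43 (Emi2) had -0.04 (SE 0.10), Ccnb1 -0.03 (SE 0.07) and Cdk1 0.08 (SE 0.11). The 20 spindle checkpoint and cohesion genes had 0.03, and the 22 genes of maternal mRNA storage 0.00.

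Among 19 genes of maternal mRNA decay tested, 15 were lower and 4 higher in GFP Low. None reached an unadjusted p of 0.05, and the median was -0.04, against 0.00 over all genes tested. Other lists also split unevenly, with 14 lower and 7 higher in follicle activation and 7 lower and 13 higher in spindle checkpoint and cohesion. No direction is read from these splits. Btg4, which recruits the deadenylase to maternal mRNAs, had 1352, 1280 and 1286 CPM in GFP Low and 1445, 1364 and 1172 CPM in RFP, which overlap. The 21 genes of follicle activation had a median of -0.03, the 12 oocyte transcription factors -0.03 and the 17 genes of the p53 family and its targets -0.04. The 18 genes of handling and stress response had -0.02, and Dnajb1 was the member with an unadjusted p under 0.05 (5.56%, beside 2.62% of all genes tested). The 13 mitochondrially encoded genes had 0.06. The 17 cumulus and granulosa markers tested had a median of -0.36, which was -1.71 without GFP Low 1 and 0.79 without RFP 2.

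**Figure D5:**
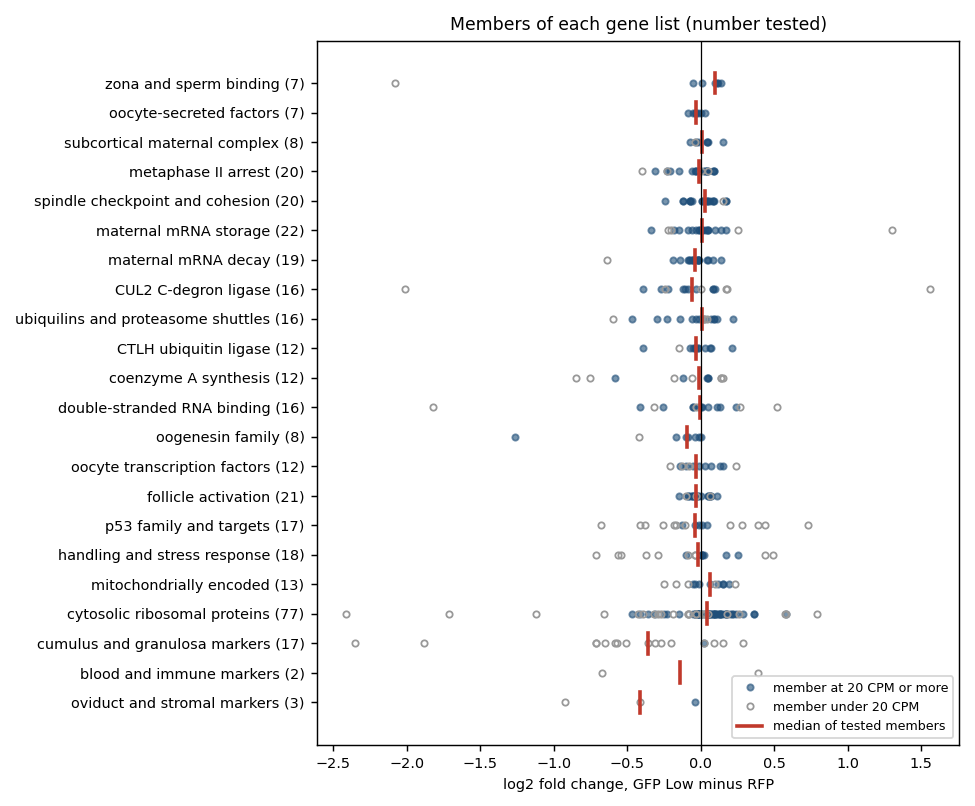
Each point is the log2 fold change (GFP Low minus RFP) of 1 tested member of a gene list, filled at 20 CPM or more and open below, and the red bar is the median of the list. Filled points gather near 0 in nearly every list, Gm2042 at -1.26 stands apart in the oogenesins, and wide values belong mostly to open points.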

How the data were processed

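The authors deposited a table for each pair of groups, with the raw count of every gene per library, a normalised signal, FPKM values and, for the comparison, log2 fold changes and p-values raw and adjusted, per the file headers. fastp, HISAT2 2.0.5, featureCounts 1.5.0-p3, DESeq2 1.20.0 and the build mm10 are named in the submitters' processing notes, without settings. How reads with several matches or from either strand were counted is not given in the sources used here. The deposited normalised signal entered no test, and FPKM was used only to check the table.

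Counts of the 6 libraries, with totals from 19381612 to 27746230, were tested with edgeR 4.0.16 in R 4.3.3 (filterByExpr, TMM, quasi-likelihood test, no covariate), with Benjamini-Hochberg adjustment over 15199 genes. Standard errors and 95% intervals come from the F statistic. The code was tested on simulated data. Replicate pairs within a group differed by more than sampling noise (chi-square per degree of freedom 13.8 to 28.9), so none was counted as a repeat of another; this does not show that they came from separate animals. Same-numbered libraries did not deviate together (r = 0.0496, -0.138 and 0.163), but 3 libraries per group cannot show whether the numbers pair them. Genes named are the calls, the 5 given mRNAs, the reporters and Sycp3, the 10 higher and 10 lower abundant mRNAs with separate groups and the smallest p, the 5 with most reads, and in each of 22 gene lists the most abundant and lowest-p members, with relatives of the 5; a few of these are not reported here. These members and lists were chosen with earlier results of these data known. Sequences and shared 50-base windows are from GENCODE M21 (GRCm38). Alternatives were DESeq2 1.42.0, limma-voom (limma 3.58.1), other scalings and filters, a replicate block and single libraries left out.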

Additional observations from a re-analysis of the deposited data

How the results depend on the processing

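The 3 calls became 34 without a filter on low counts, 10 with the DESeq2 Wald test and 1 (Gm2042) with limma-voom, and were 2 to 3 without 1 library each. The 34 included Gm10443, Hmgn1, Gm26917 and Uqcrb. Gm2042 passed under every alternative run, and eGFP under all but limma-voom. Rps28 passed in 8 of 17 fits, the reported one included. What causes these losses was not tested. Ubqln1, Klhdc2, Pank2, Strbp and Zmynd19 passed in 2 alternatives, DESeq2 and no filter, and kept their sign in all. Their log2 fold changes without 1 library ran from -0.66 (Pank2 without RFP 1) to -0.33 (Zmynd19 without RFP 3).

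The 99 abundant mRNAs with an unadjusted p under 0.05 became 165 without a filter, 37 with all 9 libraries, and 71 to 251 without 1 library (159 without GFP Low 1, 202 without RFP 2, 251 without RFP 3). Chosen after seeing the data, leaving out both GFP Low 1 and RFP 2 gave 215, with 3 calls (Gm2042, eGFP and Gm28652). The number of intervals within 1.5-fold stayed within 1.5 times of 5631 under every alternative. The eGFP share differed by 66.0 to 86.5 percentage points without 1 library.

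With the replicate block there were 3 calls, the same genes, and 90 abundant mRNAs with an unadjusted p under 0.05. The labels do not say whether the replicate numbers pair the libraries. Values near 0 changed sign when libraries were left out. Their ranges were -0.28 to 0.25 for Sycp3, -0.04 to 0.06 for Hsp90aa1, -0.03 to 0.06 for Rdx, -0.05 to 0.09 for Bub1b, -0.05 to 0.01 for Gdf9 and -0.11 to 0.04 for Btg4. They were -0.01 to 0.19 for Foxo3, -0.12 to 0.05 for mt-Cytb, -0.09 to 0.08 for Rpl5, -0.04 to 0.19 for Nr5a2 and -0.11 to 0.03 for Pecam1. Among protein-coding genes under 20 CPM a smaller share of intervals fit within 1.5-fold than the 96.7% of abundant mRNAs. It was 44.5% at 5 to 20 CPM and 0.196% at 1 to 5 CPM.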

Other observations

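Some abundant transcripts split the libraries without regard to group, and were singled out after their values had been seen. Hist1h2al, annotated as a processed pseudogene, had 88.5 CPM in GFP Low 1 and 135 in RFP 2, and at most 0.434 CPM in the other 4 libraries. Among GFP High libraries, scaled over all 9, it had 87.4, 0.203 and 0.315 CPM, so that 1 library of each group was high. Hmgn1, which encodes a nucleosome-binding protein, had 756, 768 and 689 CPM in GFP Low 2, GFP Low 3 and RFP 3, and 200, 170 and 196 CPM in GFP Low 1, RFP 1 and RFP 2. The lincRNA Gm26917 had the reverse order, at 185, 169 and 190 CPM in GFP Low 1, RFP 1 and RFP 2 and 15.2, 21.2 and 3.23 CPM in GFP Low 2, GFP Low 3 and RFP 3. Malat1, a nuclear lincRNA, had 47.1, 71.5 and 44.8 CPM in those same first 3 libraries and 15.4, 23.3 and 18.4 CPM in the others. GFP Low 1 and RFP 2 are also the libraries with the most reads of Inha, Tnfaip6 and Ptx3.

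Uqcrb, a subunit of respiratory complex III, had 45.4, 22.2 and 39.4 CPM in GFP Low and 13.5, 22.3 and 15.2 CPM in RFP (log2 fold change 1.07, SE 0.25, edgeR adjusted p = 1.00). Summed with the genes that share its sequence, the groups did not overlap (41.8 ± 11 against 23.5 ± 4.64 CPM, SD, n = 3), a sum formed after seeing the values.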
